A study of Mus musculus with 6 samples.

Results

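Transient receptor potential (TRP) channels were followed in RNA-Seq of whole mouse hearts at E13.5, and 9 of their genes are described here: Trpa1, Trpc1, Trpc6, Trpm3, Trpm4, Trpm7, Trpv2, Trpv4 and Pkd2. They were taken by gene name from a table of 46983 genes, of which 17473 had enough reads to be tested, and all 9 were among those tested. The mutant group held 3 embryos carrying Cre recombinase under the cardiac troponin T promoter together with the floxed allele of Wt1 (label TnnT2Cre;Wt1flox). The control group held 3 embryos that the labels give as wild type and that the methods of the study describe as homozygous for the floxed allele without Cre, so in that description the floxed allele was common to both groups. All embryos were of the C57BL/6 x DBA/2 background, and 1 heart made 1 library. Tnnt2 drives the Cre in the myocardium and, by the study's account, also in a part of the epicardium, while the RNA came from every cell of the heart. In such bulk RNA, fewer cells that express a gene and less RNA per cell cannot be told apart. The genes were chosen by their read counts in these same hearts, with the difference between mutant and control already known for Trpa1, so for each of the 9 that difference is a description, and the calls and intervals given for them below are no independent test of it.

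TRP channels are cation channels of the plasma membrane and of inner membranes, most of them permeable to calcium, and each is built from subunits with a shared transmembrane pore domain. They respond to stretch, temperature, lipids, reactive chemicals or the calcium and phosphoinositides released after receptor activation. In the heart the family is known for background cation entry, for receptor-operated and stretch-operated calcium entry in cardiomyocytes and fibroblasts, and, through Trpm4, for a sodium current that shapes conduction. Polycystin-2, the product of Pkd2, belongs to the same superfamily and works in the endoplasmic reticulum and in primary cilia.

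Trpa1, a channel gated by reactive irritants and best known from sensory neurons, was the member that stood apart. Its counts were 41, 30 and 37 in control replicates 2, 3 and 5. In mutant replicates 1, 5 and 10 they were 5, 2 and 3. Scaled by library size with TMM factors (CPM), these were 0.728, 0.522 and 0.841 in the controls and 0.0962, 0.0382 and 0.0596 in the mutants. Every mutant heart lay far below every control heart, and the spread within either group was small against the gap. The mean went from 0.697 ± 0.162 CPM (SD, n = 3) in control hearts to 0.0647 ± 0.0294 CPM (SD, n = 3) in mutant hearts. On the log2 scale the edgeR fit put the mutant 3.38 below the control (log2 fold change −3.38, with a standard error, SE, of 0.49), which is a 10.4-fold lower level.

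The depth behind these values was thin. Trpa1 took 108 counts over the 3 control libraries and 10 over the 3 mutant libraries, which gave a ratio of 10.6 of control over mutant with an exact 95% interval from 5.54 to 22.7. Exact 95% Poisson intervals of single hearts reached up to 0.225 CPM in mutant replicate 1 and down to 0.352 CPM in control replicate 3. As Trpa1 was chosen for its difference, these intervals give the precision of each value and no support for the gap. They cover counting error only: the ratio pools the counts of each group, and variation between hearts is left out. The libraries carried no molecular identifiers that would tell copies of one molecule from separate ones, so the counting error itself may be larger. The spread of Trpa1 between hearts had a coefficient of variation of 23.2% in controls, where counting alone gives 16.7%, and of 45.4% in mutants, where counting alone gives 54.8%. Residual Trpa1 reads were thus present in each mutant heart, at 5 counts or fewer. Trpa1 passed the filter on low counts through its level in the control hearts alone, and a gene that passes in this way had to be the higher there.

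**Figure D1:**
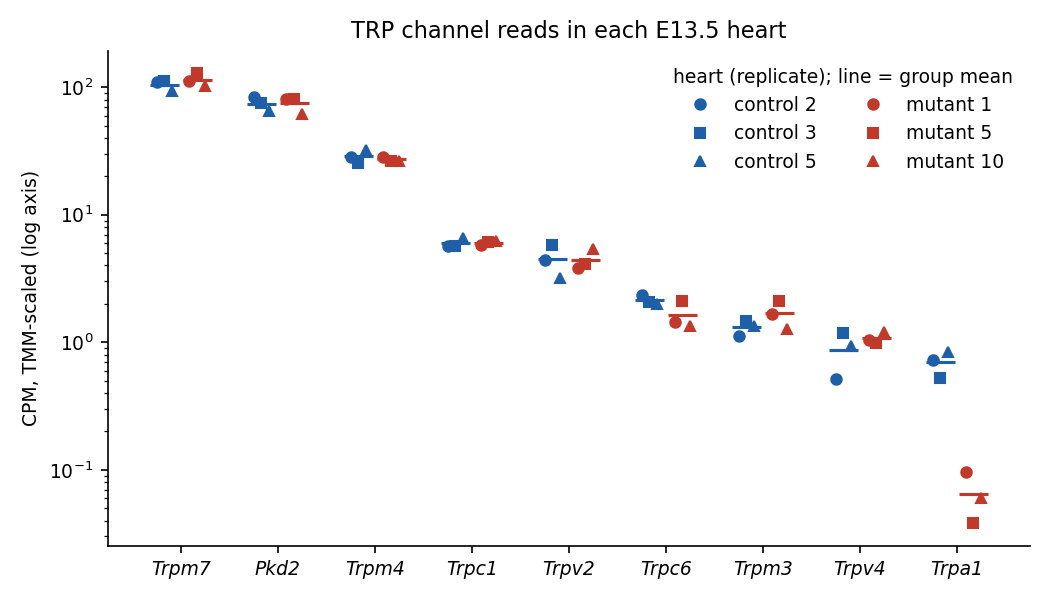
Normalized level of the 9 TRP channel genes in each heart, in CPM scaled by TMM, on a log axis. Blue symbols are the 3 control hearts, red symbols the 3 mutant hearts, and each line is the mean of its group. Trpa1, at the right, is the gene whose groups are apart (0.522 to 0.841 CPM in controls, 0.0382 to 0.0962 CPM in mutants), while in the other 8 genes the hearts of both groups intermix.

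Trpa1 lies on chromosome 1 from 14872648 to 14918862, on the reverse strand (GRCm38, GENCODE M21), and no exon of another annotated gene overlaps its exons. Its nearest protein-coding neighbours were examined for the same pattern. Msc, a basic helix-loop-helix repressor gene on the same strand 116.7 kb away, had 29, 197 and 61 counts in the controls (replicates 2, 3 and 5) against 14, 31 and 20 in the mutants (replicates 1, 5 and 10). The groups of Msc overlapped, and replicate 3 held most of the control reads. The log2 fold change of Msc was −2.08 (SE 0.66 by edgeR, with an adjusted p of 0.688, and 0.0953 by DESeq2). Kcnb2, a voltage-gated potassium channel gene 368.4 kb away on the other side, had 47, 25 and 23 counts in the controls and 37, 40 and 37 in the mutants. Its groups overlapped as well, with a log2 fold change of 0.30 (SE 0.36 by edgeR, with an adjusted p of 0.985).

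Among the 9 genes only Trpa1 had groups that did not overlap in CPM. Over all genes tested, 11.2% had groups that did not overlap, 4.59% with the mutant lower and 6.61% with the mutant higher, and this count of 1 in 9 was fixed by the choice of Trpa1. The quasi-likelihood test of edgeR, with Benjamini-Hochberg adjustment over all genes tested, called 0 of the 9 genes at an adjusted p under 0.05, where it called 0% of all genes (0 of 17473). At an unadjusted p under 0.05 the same test had 5.73% of all genes. DESeq2, the tool of the study, called 1 of the 9, Trpa1, where it called 0.677% of the genes it could call (0.282% with the mutant lower). A log2 fold change below −1 was found for 1 of the 9, again Trpa1, and for 1.93% of all genes tested. Of the 9 genes, 5 had a positive and 4 a negative log2 fold change, with a median of 0.0071, beside a median of −0.0010 over all genes tested.

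The canonical channels Trpc1 and Trpc6 open downstream of receptors that activate phospholipase C, and Trpc6 is gated by diacylglycerol. Trpc1 had the narrowest range of the 9 genes over the 6 hearts, with a highest level 1.16 times the lowest. It had 5.68, 5.72 and 6.57 CPM in control replicates 2, 3 and 5, and 5.75, 6.14 and 6.26 CPM in mutant replicates 1, 5 and 10. The mutant range lay inside the control range, with a log2 fold change of 0.02 (SE 0.15). Trpc6 had 2.34, 2.05 and 2.00 CPM in the controls and 1.44, 2.10 and 1.33 CPM in the mutants. The pair of low mutant hearts, replicates 1 and 10, lay below all controls, but mutant replicate 5 lay within the control range. The log2 fold change of Trpc6 was −0.39 (SE 0.26), and it moved to −0.63 without mutant replicate 5 and to −0.27 without mutant replicate 10.

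The melastatin channels differ widely in function. Trpm7 joins a magnesium-permeable and calcium-permeable channel to a protein kinase domain and is used by most cell types. It had the most reads of the 9, with 109.2, 111.8 and 92.9 CPM in control replicates 2, 3 and 5 and 112.9, 128.7 and 102.1 CPM in mutant replicates 1, 5 and 10. The hearts of both groups overlapped, and the lowest value was that of control replicate 5. Its log2 fold change was 0.13 (SE 0.12), or 0.03 without mutant replicate 5.

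Trpm4, a calcium-activated channel that passes sodium and potassium and not calcium, had 28.4, 25.7 and 32.0 CPM in the controls and 28.5, 26.4 and 26.6 CPM in the mutants. All mutant values lay within the control range, and the log2 fold change was −0.08 (SE 0.11). Trpm3, a heat-activated and steroid-activated channel, was among the rarest, with 1.12, 1.48 and 1.34 CPM in the controls and 1.67, 2.10 and 1.27 CPM in the mutants. A pair of mutant hearts, replicates 1 and 5, lay above all controls and replicate 10 lay among them. The log2 fold change of Trpm3 was 0.36 (SE 0.28) and fell to 0.14 once the trend of each heart with gene length was removed. Its exons span 24437 bases, the longest of the 9, and exons of C330002G04Rik and Gm27151 on the opposite strand cover 1.44% and 1.13% of them. The strand setting of the counting is not given in the sources used here, so reads from those bases cannot be assigned with certainty.

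The vanilloid channels Trpv2 and Trpv4 are stretch-responsive or osmotically responsive calcium-permeable channels, Trpv4 being known from endothelium and fibroblasts and Trpv2 from muscle and macrophages. They varied most within the control group. Trpv2 had 4.39, 5.83 and 3.18 CPM in control replicates 2, 3 and 5 and 3.85, 4.10 and 5.41 CPM in mutant replicates 1, 5 and 10. The mutant values fell inside the control range, and the log2 fold change was −0.01 (SE 0.25). Its sign depended on single hearts, at 0.23 without control replicate 3 and −0.20 without control replicate 5. Markers of macrophages moved with the groups in the same hearts: 9 of the 10 macrophage genes were higher in the mutant, and their summed level was 100.1 to 123.1 CPM in controls and 156.4 to 176.1 CPM in mutants. The part of these cells in the level of Trpv2 was not tested.

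Trpv4 had 0.515, 1.18 and 0.932 CPM in the controls and 1.04, 0.992 and 1.21 CPM in the mutants. Control replicate 2, with 29 counts, was the one low heart, and the other controls lay among or beside the mutants. The log2 fold change of 0.30 (SE 0.36) therefore shrank to 0.03 without control replicate 2, and it grew to 0.59 without control replicate 3. The coefficient of variation in controls was 38.5% for Trpv4 and 29.7% for Trpv2, where counting alone gives 14.7% and 6.45%.

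Pkd2, which is mutated in polycystic kidney disease and whose loss disturbs left-right patterning and heart septation in mice, had 84.2, 74.7 and 64.6 CPM in control replicates 2, 3 and 5. It had 81.5, 81.0 and 62.2 CPM in mutant replicates 1, 5 and 10. Control replicate 5 and mutant replicate 10 were the low hearts of their groups, as they were for Trpm7, and the groups overlapped. The log2 fold change was 0.01 (SE 0.14). Pkd1, the large receptor-like partner of Pkd2, named here for that pairing, had 3687, 3515 and 2038 counts in the controls and 2782, 3286 and 2582 counts in the mutants, with a log2 fold change of −0.05 (SE 0.15 by edgeR, with an adjusted p of 0.991).

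Control replicate 5 stood apart from the other libraries. It had the smallest total count, 44244665, while the largest was 56373393 in control replicate 3. Across 11774 genes the deviation of log2 CPM from the mean of the hearts was set against exon length, and Spearman's rho was −0.550 in control replicate 5, against −0.108 to 0.439 in the other 5 hearts. Trpm7 and Pkd2, whose exons span 11315 and 10169 bases, lay 0.23 and 0.20 below their means over the hearts in that library on the log2 scale, whereas Trpm4, with 10826 bases, lay 0.20 above its mean. Without control replicate 5, the log2 fold change of Trpa1 was −3.23. Leaving out any 1 heart gave values between −3.77 (without mutant replicate 1) and −3.12 (without mutant replicate 5). As Trpa1 was chosen for its difference in these same hearts, these values describe the size of the gap and are no support for it. The targeted gene, Wt1, had 2251, 1891 and 879 counts in the controls and 921, 1746 and 1796 in the mutants, so counts over the whole gene and heart did not separate the groups. Cardiomyocyte markers were abundant in both groups. Tnnt2 had 4010, 3875 and 3995 CPM in control replicates 2, 3 and 5 and 4134, 4215 and 4483 CPM in mutant replicates 1, 5 and 10. Its groups did not overlap, with a log2 fold change of 0.11 (SE 0.12 by edgeR, with an adjusted p of 0.985). Over all genes tested, 6.61% had such groups with the mutant higher.

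Levels of different channels can be set side by side only per length. In the deposited FPKM (fragments scaled by gene length and by library size), the order in control hearts was Trpm7 (44.4 ± 4.89, SD, n = 3), Pkd2 (17.9 ± 2.53), Trpm4 (6.82 ± 0.672), Trpc1 (2.31 ± 0.162), Trpv2 (2.12 ± 0.651), Trpc6 (0.711 ± 0.0665), Trpv4 (0.352 ± 0.137), Trpm3 (0.260 ± 0.0367) and Trpa1 (0.165 ± 0.0364). The control hearts of neighbours in this order did not overlap, except that Trpc1 could not be told from Trpv2 nor Trpv4 from Trpm3. Trpm7 alone made up 59.2% of the summed FPKM of the 9 genes, and Trpa1 0.220%. Among the 25075 genes with any reads in controls, Trpm7 stood above 88.6% and Trpa1 above 29.5%.

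The length behind an FPKM decides part of this order. For 76.0% of the genes with reads and annotation, the length in the deposited FPKM was, within 1 base, the mean length of the gene's annotated transcripts, short fragments included. For Trpm7, with 11 annotated transcripts, it was 2384 bases, while the longest transcript has 7107. For Trpm4 it was 4245 against a longest transcript of 4315, and for Trpa1 both lengths were 4263. The mean transcript lengths of Trpm4 and Trpa1 in GENCODE M21 were 2390 and 3775.5 bases, so their deposited length was not this mean. The same held for Trpc6, Trpm3 and Trpv4, so the FPKM order does not rest on this mean for every gene. Per kilobase of the longest transcript, Trpm7 stood at 14.7 ± 1.44 CPM (SD, n = 3) and Pkd2 at 14.3 ± 1.88 CPM in controls, with overlapping hearts, so the lead of Trpm7 over Pkd2, 2.48-fold in FPKM, was no longer larger than the spread. On that scale Trpm3 (0.107 ± 0.0147 CPM per kb) fell below Trpa1 (0.163 ± 0.0380 CPM per kb), without overlap between their control hearts. Which transcripts the hearts used was not tested.

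**Figure D2:**
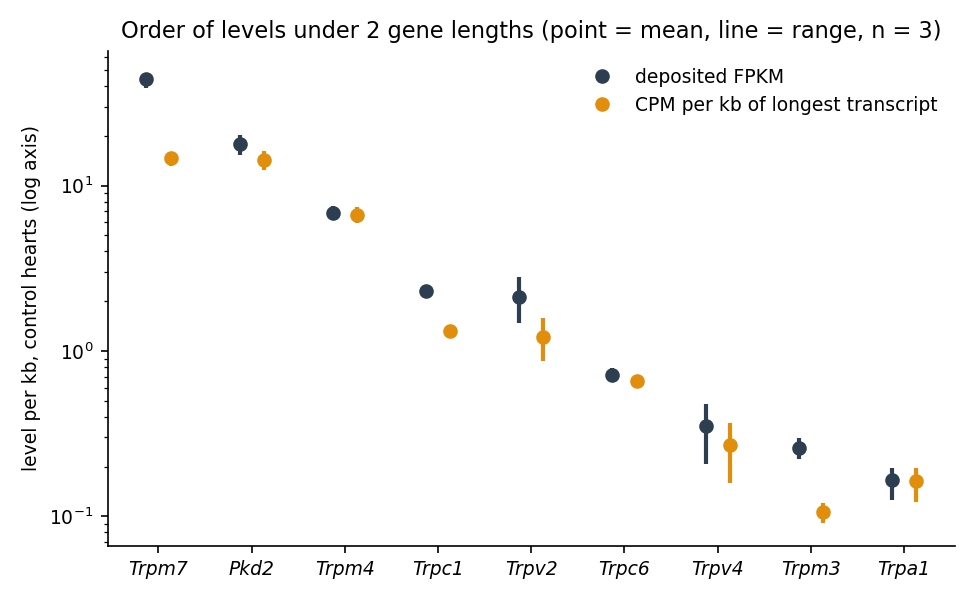
Level of the 9 genes in the 3 control hearts on a log axis, as deposited FPKM (dark) and as CPM per kilobase of the longest annotated transcript (orange), with points for means and lines for ranges. Trpm7 drops from 44.4 FPKM to 14.7 CPM per kb and meets Pkd2 at 14.3, and Trpm3 drops below Trpa1.

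The rest of the superfamily was taken by symbol: 19 further genes, of which 12 were tested. Of these, 0 had an adjusted p under 0.05 with edgeR, 0 with DESeq2 and 0 an unadjusted p under 0.05 with edgeR. Their log2 fold changes were positive in 4 and negative in 8, with a median of −0.09. None of the 12 had groups that did not overlap. The smallest p was that of Trpc5, a receptor-operated channel best known from the brain, which had 55, 68 and 14 counts in the controls and 100, 59 and 56 in the mutants (log2 fold change 0.73, SE 0.48 by edgeR, with an adjusted p of 0.966).

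Several of these channels were more abundant than most of the 9. Mcoln1, the lysosomal mucolipin channel, reached 10.2 ± 0.462 CPM per kb of the longest transcript in controls, next after Trpm7 and Pkd2, and 9.80 ± 0.575 CPM per kb in mutants. Trpm5, a calcium-activated channel known from taste cells, had 313, 461 and 553 counts in the controls and 317, 443 and 371 in the mutants. Of its exon bases, 3.44% are shared with Tssc4 on the opposite strand. Pkd2l2 had a log2 fold change of 0.04 (SE 0.13), and 10.9% of its exon bases are shared with Fam13b on the opposite strand. Other tested genes ran from −0.51 (Trpc4, SE 0.38) to 0.42 (Trpm2, SE 0.43), with Mcoln2 at −0.45, Trpm8 at −0.43, Mcoln3 at −0.14, Trpc7 at −0.12 and Trpm6 at −0.03 between them.

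At the low end of the family, the capsaicin channel Trpv1, a usual companion of Trpa1 in sensory neurons, had 0 counts in every control heart, while mutant replicates 1, 5 and 10 held 3, 0 and 2. Since 0 reads are compatible with a true level of up to 3 per heart, no fold is given. Trpc2 was listed at 0 counts in all hearts, with 97.5% of its exon bases shared with Xntrpc on the same strand. Trpm1, Trpv3, Trpv5, Trpv6 and Pkd2l1 had too few reads to be tested. Per kilobase of the longest transcript, Trpa1 ranked 15th of the 28 family genes in controls and 23rd in mutants.

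**Figure D3:**
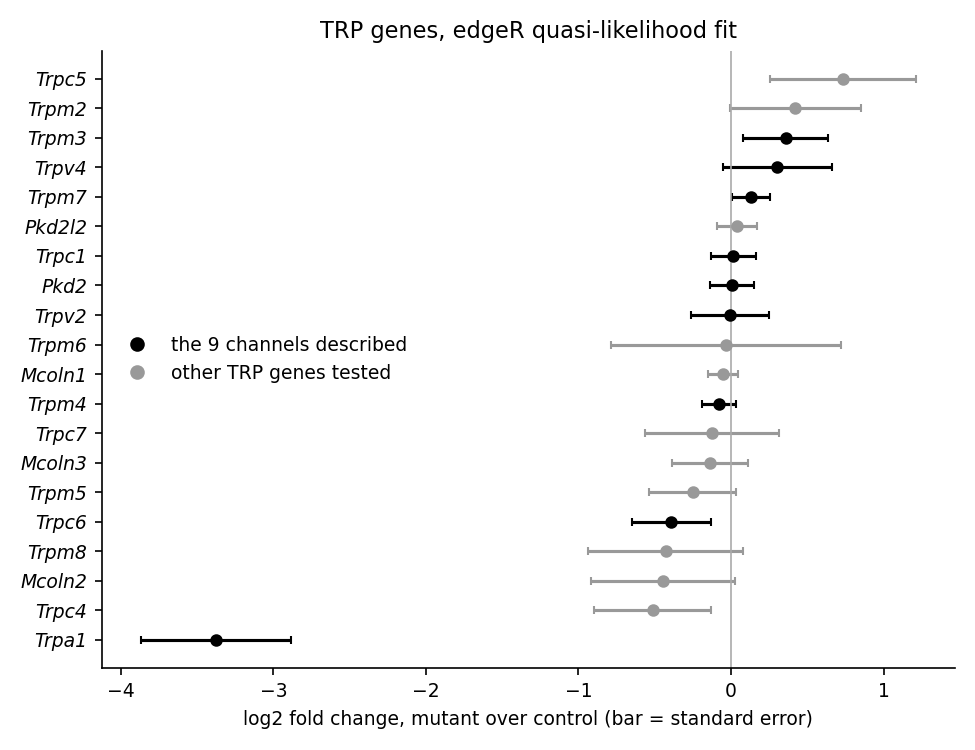
Log2 fold change of the mutant over the control for TRP superfamily genes tested, with the standard error of the edgeR fit as bars. Black points are the 9 genes described and grey points other tested genes of the superfamily. Trpa1 lies at −3.38, and the other genes shown lie between −0.51 and 0.73.

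The genes around the channels were counted from lists chosen with earlier results of these hearts known. Since edgeR called 0 genes in all, its 0 in any list carries no information about that list, and the calls of DESeq2 are given beside it. Over all genes it could call, DESeq2 called 0.677% (0.282% with the mutant lower). Because of how the lists were chosen, the counts within them are a description. Of the 3 tested partners of polycystins, DESeq2 called 0, and the smallest p was that of Pkdrej (log2 fold change 0.27, SE 0.36 by edgeR, with an adjusted p of 0.985). Of 13 genes for Gq proteins and phospholipases C, which stand upstream of the canonical channels, 10 had a positive and 3 a negative log2 fold change, with a median of 0.10, and DESeq2 called 0. Plcg2 had the smallest p there (log2 fold change 0.47, SE 0.19 by edgeR, with an adjusted p of 0.847). Of 19 tested regulators and scaffolds, 13 had a positive and 6 a negative log2 fold change, with a median of 0.07, and DESeq2 called 0. Tmem100, an adaptor that joins Trpa1 to Trpv1 in sensory neurons and is also an endothelial gene, had 873, 898 and 788 counts in the controls and 1340, 1371 and 971 in the mutants. Its groups did not overlap, and its log2 fold change was 0.54 (SE 0.14 by edgeR, with an adjusted p of 0.547, and 0.145 by DESeq2).

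Marker lists of the cells that could carry Trpa1 were set beside it. Of 11 sensory neuron genes, 7 were tested, with a median log2 fold change of −0.43, 5 of them negative. Their summed level was 14.8 to 15.7 CPM in controls and 10.2 to 10.8 CPM in mutants, but most of that gap was Calca, the gene of calcitonin gene-related peptide, at 399, 362 and 349 counts in the controls and 104, 167 and 211 in the mutants. Calca had a log2 fold change of −1.18 (SE 0.27 by edgeR, with an adjusted p of 0.385), and DESeq2 called it, as 1 gene of the list, with an adjusted p of 0.00487. Without Calca the summed level of the other 10 genes was 6.84 to 8.82 CPM in controls and 6.60 to 8.50 CPM in mutants. Defining markers of irritant-sensing neurons were at or near 0 in the hearts, with Mrgprd at 0 counts in all, Scn9a at 0, 1 and 2 counts and Prdm12 at 0, 2 and 0 counts in the controls. Of 17 tested genes of autonomic neurons and neural crest, 4 had a positive and 13 a negative log2 fold change (median −0.19). Their summed level overlapped between groups, from 125.6 to 149.0 CPM in controls and from 122.5 to 141.1 CPM in mutants. The smallest p in that list was that of Prph, a neuronal intermediate filament gene, with a log2 fold change of 1.45 (SE 0.33 by edgeR, with an adjusted p of 0.385), and DESeq2 called it, as 1 gene of the list, with an adjusted p of 0.0123.

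Genes of the sinus venosus and sinus node moved with the groups as Trpa1 did. Of 10 such genes, 9 had a negative log2 fold change (median −0.26). In 4 of them the groups did not overlap, beside 11.2% of all genes tested (4.59% with the mutant lower). The summed level of the 10 genes was 289.8 to 307.5 CPM in controls and 227.5 to 243.9 CPM in mutants. As the list was chosen with earlier results of these hearts known, these values are a description. Shox2, a homeobox gene of the sinus node, had 1997, 2202 and 1812 counts in the controls and 1049, 868 and 994 in the mutants (log2 fold change −1.02, SE 0.12 by edgeR, with an adjusted p of 0.0991). DESeq2 called 2 genes of the list, Shox2 among them with an adjusted p of 2.07e-09, beside 0.677% of all genes it could call. Hcn4, the pacemaker channel, had overlapping groups and a log2 fold change of 0.08 (SE 0.13). Epicardial genes had a median of 0.37, with a summed level of 332.1 to 602.2 CPM in controls and 390.7 to 689.6 CPM in mutants. The smallest p of that list was that of Tcf21, a transcription factor of epicardial and fibroblast lineages, with 2972, 2496 and 2536 counts in the controls and 1453, 1195 and 1046 in the mutants (log2 fold change −1.10, SE 0.15 by edgeR, with an adjusted p of 0.113). DESeq2 called 2 epicardial genes, and they went opposite ways. Tcf21 was lower in the mutants, with an adjusted p of 1.62e-07 by DESeq2. Krt8, a keratin gene, was higher in the mutants (log2 fold change 1.13, SE 0.21 by edgeR, with an adjusted p of 0.000247 by DESeq2). The part of any of these cells in the level of Trpa1 was not tested.

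In the other marker lists DESeq2 called 2 macrophage genes, and 1 fibroblast gene, which was Tcf21. It called 0 genes of endothelium, cardiomyocytes, smooth muscle, airway and erythroid cells, beside 0.677% of all genes it could call. All 9 tested endothelial and endocardial genes had a positive log2 fold change (median 0.26), as did 10 of 14 cardiomyocyte genes (median 0.10), 6 of 10 fibroblast genes (median 0.04), 5 of 7 smooth muscle genes (median 0.03), 3 of 7 airway and foregut genes (median −0.11) and 3 of 9 erythroid genes (median −0.11). The summed levels of the 2 groups overlapped for each of the lists from endothelium to erythroid cells. They did not overlap for the macrophage genes (100.1 to 123.1 CPM in controls, 156.4 to 176.1 CPM in mutants). Myl7, the atrial light chain gene and the cardiomyocyte gene with the smallest p, had 80635, 65271 and 76685 counts in the controls and 56753, 41886 and 60003 in the mutants (log2 fold change −0.48, SE 0.20 by edgeR, with an adjusted p of 0.860). Of the macrophage genes, the smallest p was that of C1qa, a complement gene (log2 fold change 0.98, SE 0.18 by edgeR, with an adjusted p of 0.259), which DESeq2 called with an adjusted p of 0.000304.

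The genes most like Trpa1 over the 6 hearts were looked for among 14156 other genes with a mean of at least 1 CPM, by Pearson's correlation of log2 CPM, given as a description of 6 libraries that share depth and composition. They were Rn7sk (r = 0.998), Olfm1 (0.990), Shox2 (0.986), Dner (0.985) and Dact2 (0.985). All of them were lower in every mutant heart than in every control heart, with log2 fold changes of −1.86, −0.49, −1.02, −0.92 and −0.80 in that order, and such a gap between groups by itself gives a high r. Rn7sk, a small nuclear RNA made by RNA polymerase III, had 99, 83 and 89 counts in the controls and 30, 19 and 25 in the mutants.

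**Figure D4:**
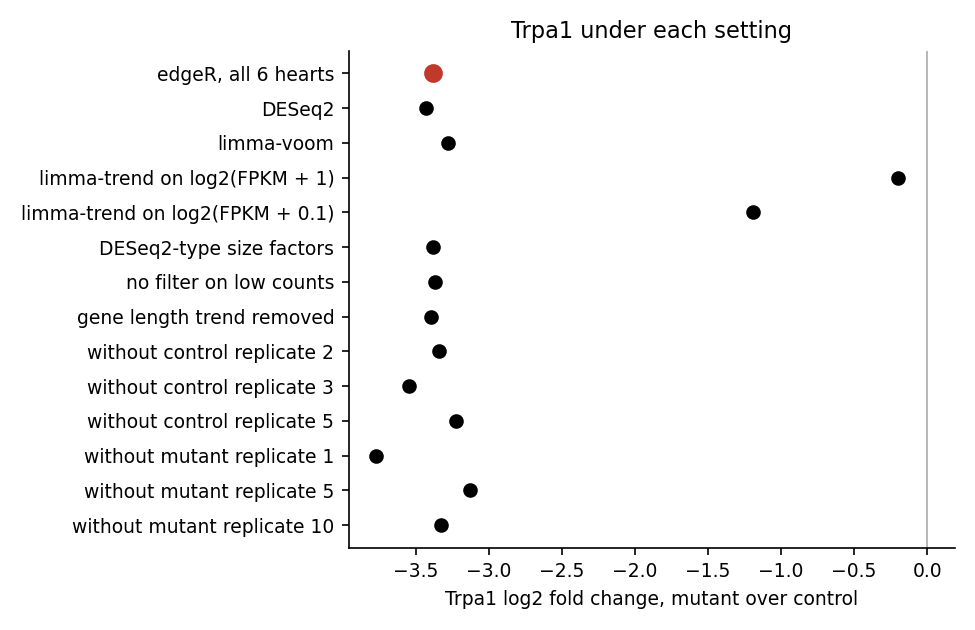
Log2 fold change of Trpa1, mutant over control, under each setting of the fit, with the result for all 6 hearts in red. Count-based settings lie between −3.77 and −3.12, while the fits on log2(FPKM + 0.1) and log2(FPKM + 1) give −1.19 and −0.20, where the constant is added to a control level of 0.165 FPKM.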

How the data were processed

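RNA of 6 single hearts was sequenced as paired reads, from total RNA with a TruSeq RNA kit. By the study's methods, reads were trimmed with Trim Galore, aligned to mm10 with STAR, and uniquely mapped reads were counted per gene with featureCounts and GENCODE M19, while the submitters' processing notes name HTSeq. The authors deposited raw counts and FPKM values. Within each gene the FPKM followed the count exactly once divided by library total and a single fixed gene length. A second copy of either table held the same values, and the authors' mean FPKM per group was not used. The strand setting is not given in the sources used here.

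The deposited counts were fitted with edgeR 4.0.16 in R 4.3.3 (TMM, filterByExpr at its default minimum count of 10, quasi-likelihood test, two-sided, no covariates), with Benjamini-Hochberg adjustment over all genes tested and a threshold of 0.05. Standard errors are the log2 fold change divided by the root of F. Alternatives were DESeq2 1.42.0, limma 3.58.1 (voom on counts, trend on log2 FPKM plus 1 or 0.1), other size factors and filters, removal of the trend with exon length (lowess, span 0.5), a threshold of 0.1, and each heart left out. Levels per kb of the longest transcript or of all exons were added after the FPKM lengths were seen. Likeness to Trpa1 was computed on log2 CPM with 0.5 added to each count. The script was tested on simulated data with 200 changed genes. There edgeR recovered 128 of them with 6 false calls, and DESeq2 recovered 142 with 44 false calls. The calls of DESeq2 given above are to be read with that in mind. Positions and lengths are of GENCODE M21 (GRCm38), which matched 46488 of the 46983 genes. Genes named are the 9 members, the other TRP genes tested (1 of them is counted but not reported here), the member of each fixed list with the smallest p, the neighbours of Trpa1 and the 5 genes most like it. Other genes were named after their values were seen. The members and lists were chosen with earlier results of these data known. Depth ran from 44244665 to 56373393 counts. Hearts are separate embryos, and no pair of libraries agreed within sampling noise (chi-square per gene from 27.8 to 209). No sequence is printed, since none was at hand for Trpa1.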

Additional observations from a re-analysis of the deposited data

How the results depend on the processing

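The log2 fold change of Trpa1 (−3.38) kept its sign in all 13 alternatives that could fit it and moved by more than the spread between hearts in 2 of them, to −0.20 on log2(FPKM + 1) and −1.19 on log2(FPKM + 0.1). With each heart left out it lay between −3.77 and −3.12. As Trpa1 was chosen for this difference, the kept sign is no support for it. The filter of 1 CPM in 3 hearts removed Trpa1. The count of genes called (0) was 132 with DESeq2, 34 without a filter on low counts, 6 at an adjusted p under 0.1, and 0 to 44 with each heart left out, the 44 without control replicate 5. Members called (0) rose to 1, Trpa1, with DESeq2 and without a filter, and other TRP genes called stayed at 0 in every alternative. The other 8 members moved by less than the spread between hearts in all 14 alternatives. The sign turned in 7 of these for Pkd2, 7 for Trpc1, 4 for Trpv2 and 1 for Trpm4. In the order of levels, 2 genes changed place per kb of the longest transcript and 4 per kb of all exons. Without a control heart, 0 to 2 did, the 2 without replicate 5. The cause of these moves was not tested beyond the lengths themselves. No paired analysis was possible because the groups share a single replicate number, 5. Depth limits the precision of Trpa1, which had 10 counts over the mutant hearts.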
